A study of Mus musculus with 3 samples.

Results

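Solute carriers are the membrane proteins that move sugars, amino acids, nucleosides, ions, metals and vitamins across cell and organelle membranes. They were examined in 3 populations of CD8+ T cells, with 1 Affymetrix array each, and these were the innate cells with CXCR3 (CXCR3+ innate), the innate cells without it (CXCR3- innate) and naive cells. The word innate comes from the submitters. The members were the genes whose symbol has the form Slc, a family number, the letter a and a member number, and whose highest of the 3 log2 values was 8 or more. There were 44 of them among 10191 genes with 1 symbol, from 28 families, and 124 further genes of that symbol form stayed below 8. Because the values on these same arrays chose the members, their levels are given as a description.

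Spleen and lymph nodes gave all 3 populations, taken from mice of the C57BL/6 strain with the CXCR3-GFP Reporter, a fluorescent report of the chemokine receptor CXCR3. The mice were naive and kept under pathogen-free conditions, cells were stained for CD44, CD62L and CD8 and sorted, and RNA was taken from about 3 to 5 mice. The exact gates and the age of the mice are not given in the sources used here. One array of cells pooled from several mice has no spread between replicates, so no test between populations was possible and no p-value is given. Higher and lower below describe these 3 arrays. A lower value in bulk cells cannot tell fewer cells with the transcript from less RNA per cell.

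Resting T cells take up modest amounts of glucose and amino acids. On activation they raise transporters such as the glucose carrier Slc2a1, the large neutral amino acid carrier made of Slc7a5 and Slc3a2, and the glutamine carrier Slc1a5, and they export lactate through Slc16a1. Family 25 works inside the cell and links the mitochondrial matrix to the cytosol, among others by exchanging ADP for ATP.

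The labelled cell type was checked first. Of 8 CD8+ T cell markers 7 were measured, and Cd8a, a chain of the CD8 coreceptor, read 10.14 on the CXCR3+ innate array, 9.77 on the CXCR3- innate array and 10.43 on the naive array. None of 8 B cell markers and none of 6 erythroid markers was measured, and for those genes the table holds no reading at all, which is not a reading of 0. Of 8 myeloid markers 4 were listed, with a mean log2 level of 7.59 on the CXCR3+ innate array, 7.70 on the CXCR3- innate array and 7.62 on the naive array. The neutrophil gene S100a9 was the highest of them, at 8.04, 8.31 and 8.09 in the same populations. The mean of the 7 CD8+ T cell markers was 10.24, 9.997 and 10.42, so it was also lowest on the CXCR3- innate array, where several carriers below were lowest. The single NK cell marker measured of 4, Ncr1, read 7.19, 7.43 and 7.19, and the single CD4+ T cell marker of 4, Foxp3, read 7.30, 7.36 and 7.30, both highest on the CXCR3- innate array. The part of these markers in the carrier values was not tested.

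Carriers with 3 different kinds of cargo had the widest ranges over the arrays. Slc16a1, a proton-coupled transporter of lactate and pyruvate, read 8.54 on the CXCR3+ innate array, 8.32 on the CXCR3- innate array and 9.10 on the naive array. Slc12a7, which moves potassium and chloride together out of the cell, read 8.16, 8.31 and 8.93 in that order. Slc25a5, an exchanger of ADP and ATP in the mitochondrial inner membrane, read 9.86, 9.42 and 10.11. Naive cells had the highest value of each, and the lowest value was in CXCR3- innate cells for Slc16a1 and Slc25a5 but in CXCR3+ innate cells for Slc12a7. They were the only members that differed by 1.5-fold or more, a log2 difference of 0.585, in any comparison, and no member differed by 2-fold. Among the 3525 genes with a highest value of 8 or more, 1.05% were higher and 1.84% lower by 1.5-fold in CXCR3+ innate minus naive, 0.17% and 4.48% in CXCR3- innate minus naive, and 2.7% and 0.255% between the innate populations.

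The promoters of these genes and of 2 abundant carriers, Slc2a1 and Slc38a2, are shown so their start regions can be read side by side. Slc2a1 had a narrow range of 0.06 over the arrays, while that of Slc38a2 was 0.39. Each sequence is the 250 bases before an annotated RefSeq start on build GRCm38.p6, 5′ to 3′ on the strand of the gene. The Slc12a7 window is chr13:73763410-73763659 on the plus strand and lies within the longer span that the table gives for that gene. Those of Slc16a1 at chr3:104638414-104638663, Slc25a5 at chrX:36795347-36795596 and Slc2a1 at chr4:119108495-119108744 are on the plus strand. That of Slc38a2 at chr15:96699729-96699978 is on the minus strand. Capitals mark matches, on either strand, to the GC box GGGCGG and the E-box CACGTG; the CCAAT box CCAAT and the TATA box TATAAA were searched too.
Slc12a7: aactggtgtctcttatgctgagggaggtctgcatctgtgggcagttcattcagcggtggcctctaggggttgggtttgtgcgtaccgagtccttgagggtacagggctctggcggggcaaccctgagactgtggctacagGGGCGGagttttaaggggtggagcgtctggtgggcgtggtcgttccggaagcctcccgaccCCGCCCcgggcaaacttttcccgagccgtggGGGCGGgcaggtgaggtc
Slc16a1: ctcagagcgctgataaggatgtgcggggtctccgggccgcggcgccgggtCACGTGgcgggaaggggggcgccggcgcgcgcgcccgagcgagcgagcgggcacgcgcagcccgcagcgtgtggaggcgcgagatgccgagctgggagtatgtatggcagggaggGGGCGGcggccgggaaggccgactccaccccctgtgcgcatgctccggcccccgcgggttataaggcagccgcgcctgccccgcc
Slc25a5: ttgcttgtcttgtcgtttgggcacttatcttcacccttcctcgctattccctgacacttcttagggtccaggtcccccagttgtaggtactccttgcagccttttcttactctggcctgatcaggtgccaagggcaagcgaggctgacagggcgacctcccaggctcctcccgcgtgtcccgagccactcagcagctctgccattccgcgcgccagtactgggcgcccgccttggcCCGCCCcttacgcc
Slc2a1: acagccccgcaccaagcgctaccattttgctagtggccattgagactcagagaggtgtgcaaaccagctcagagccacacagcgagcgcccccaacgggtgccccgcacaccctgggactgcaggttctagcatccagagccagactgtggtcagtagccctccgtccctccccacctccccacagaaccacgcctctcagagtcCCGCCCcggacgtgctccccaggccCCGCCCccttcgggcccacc
Slc38a2: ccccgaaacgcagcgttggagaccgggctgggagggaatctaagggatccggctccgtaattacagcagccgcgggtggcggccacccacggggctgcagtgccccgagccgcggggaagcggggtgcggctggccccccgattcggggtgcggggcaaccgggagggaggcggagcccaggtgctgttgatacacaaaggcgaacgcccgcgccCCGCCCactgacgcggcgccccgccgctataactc
The Slc12a7 window held 3 GC boxes, Slc2a1 held 2, and Slc16a1, Slc25a5 and Slc38a2 held 1 each. The Slc16a1 window also held 1 E-box, which begins 200 bases before the start, and none of these 5 windows held a CCAAT or TATA box. Of 33 members with a promoter in the table, taking the most upstream start of each gene, 66.7% held a GC box, 12.1% an E-box, 33.3% a CCAAT box and 0 a TATA box. The shares were 55.8%, 8.38%, 35.6% and 8.91% for 2638 protein-coding genes with a highest value of 8 or more. Over all 32851 windows of this length they were 32.7%, 6.02%, 33.8% and 12.4%. The GC box was thus found in all 5 windows shown, that of Slc2a1 with its narrow range included. A match of letters is not evidence of a bound site.

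**Figure D1:**
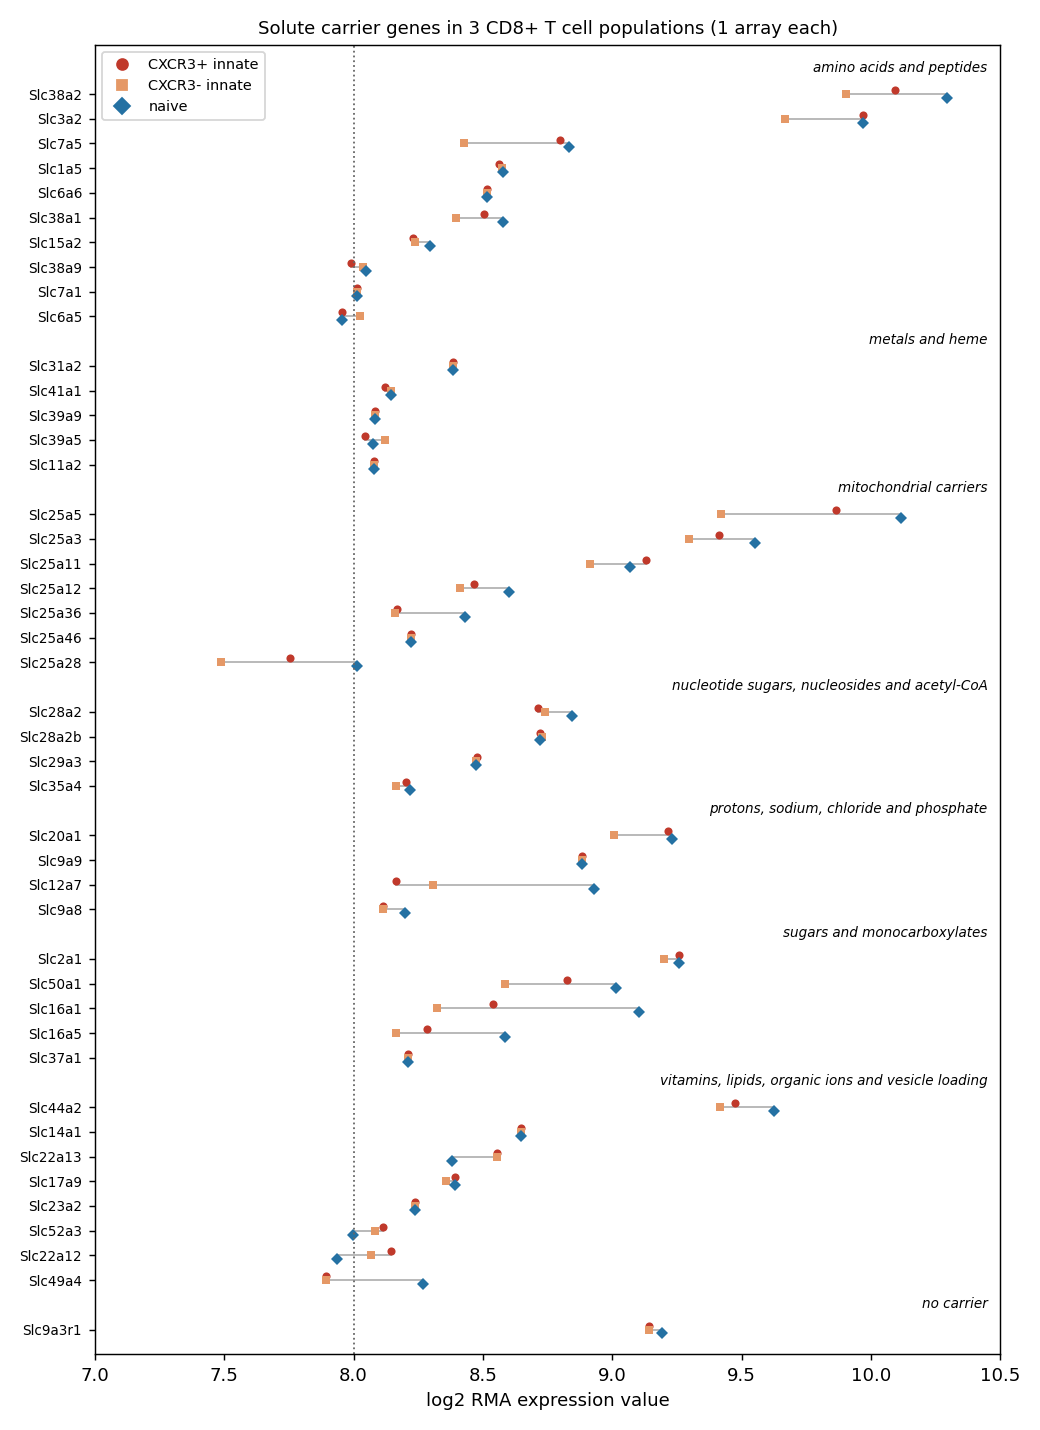
Log2 RMA expression value (horizontal axis) of each of the 44 genes, 1 row per gene and grouped by cargo, with 1 point per population (circle CXCR3+ innate, square CXCR3- innate, diamond naive); grey lines join the lowest and highest value and the dotted line is the level of 8. Slc16a1, Slc12a7 and Slc25a5 have the longest lines, and in 10 rows the 3 points coincide.

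Levels of the 44 genes, as means of the 3 log2 values, lay between 7.75 and 10.10 with a median of 8.47, against a median of 8.47 for all 3525 genes with a highest value of 8 or more. These are log2 values of different probe sets, so an order between genes describes signal and not transcript number. The array table gives no background level. As a yardstick, 540 olfactory and vomeronasal receptor genes, which serve smell and pheromone sensing, had a median of 7.71. Of them, 35.7% also reached 8. The deposited values leave out the dimmest probe sets, so these 540 are only the receptor genes bright enough to be listed. Their median, and the shares of receptor genes given here and below, may therefore be too high as a measure of background. The members with the brightest signal stood above most of these receptor genes: 1.11% of receptor genes were at or above Slc38a2 and 5.00% at or above Slc2a1. For the dimmest member, Slc25a28, the share was 46.9%, so a listed value near 8 does not by itself show expression.

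Just inside the level of 8, by their highest value, were Slc7a1 at 8.01, Slc25a28 at 8.01, Slc6a5 at 8.03, Slc38a9 at 8.05 and Slc11a2 at 8.08. Just outside were Slc37a3 at 7.99, Slc10a7 at 7.97, Slc25a47 at 7.96, and Slc22a5 and Slc36a2, both at 7.95. Slc6a5 is the glycine carrier of inhibitory neurons, so membership is no proof that a carrier works in T cells.

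Equal values were frequent. Of the 44 members, 10 had the same value on all 3 arrays, which is 22.7%, against 15.6% of the 3525 genes at 8 or more. They were Slc6a6, which carries taurine, Slc7a1 for cationic amino acids, the copper carrier Slc31a2, the zinc carrier Slc39a9, the iron carrier Slc11a2, the mitochondrial Slc25a46, the endosomal sodium and proton exchanger Slc9a9, the sugar phosphate family member Slc37a1, the urea channel Slc14a1 and the ascorbate carrier Slc23a2. Over the whole table, 61.5% of the probe sets with equal values shared their value with another such probe set. A difference of exactly 0 therefore does not show that a carrier was expressed alike in the 3 populations. Of the members, 13 more spanned at most 0.1 on the log2 scale, 5 spanned 0.1 to 0.2, and 16 spanned 0.2 or more.

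**Figure D2:**
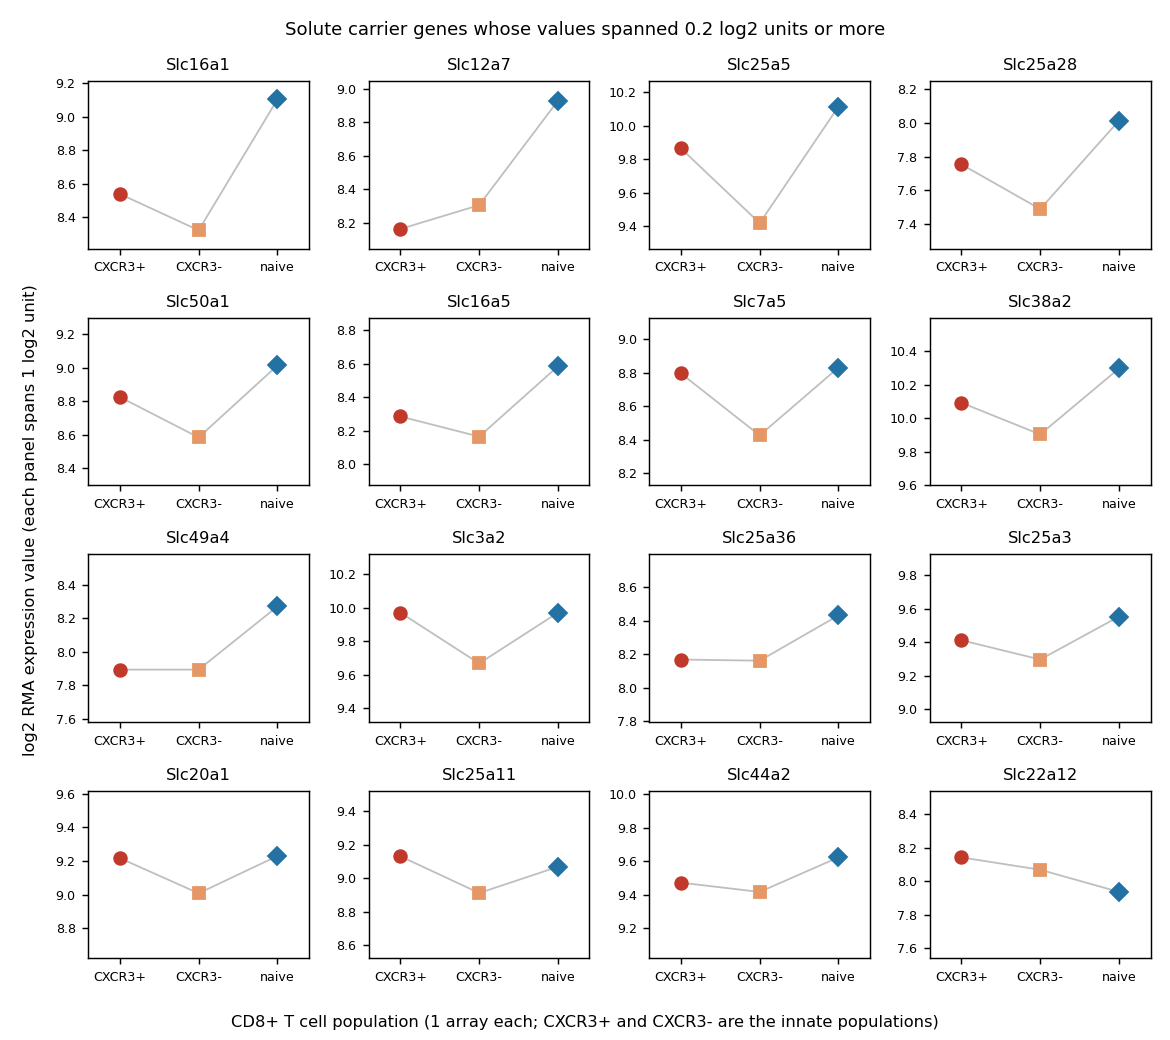
Log2 RMA expression value (vertical axis, each panel 1 log2 unit high) of the 16 genes whose values spanned 0.2 or more, with 1 array per population, in order of decreasing range. In most panels the naive value is highest and the CXCR3- innate value lowest; Slc22a12 and Slc25a11 are highest in CXCR3+ innate cells, and Slc12a7 is lowest there.

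Amino acid and peptide carriers made up 10 members. Slc38a2, a sodium-coupled carrier of small neutral amino acids, had the highest level of all members, at 10.09 on the CXCR3+ innate array, 9.90 on the CXCR3- innate array and 10.30 on the naive array. Its chromosomal neighbour Slc38a1, a related carrier that takes up glutamine, read 8.50, 8.40 and 8.58. Both had the same order, with naive cells highest and CXCR3- innate cells lowest, although the range was 0.39 for Slc38a2 and 0.18 for Slc38a1. Under quantile normalization the CXCR3- innate minus naive difference of Slc38a2 was -0.19 in place of -0.39.

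The subunits of the large neutral amino acid carrier were lower on 1 array. Slc7a5, the light chain that binds leucine and other large neutral amino acids, read 8.80 on the CXCR3+ innate array, 8.43 on the CXCR3- innate array and 8.83 on the naive array. Slc3a2, the heavy chain also known as CD98, read 9.97, 9.67 and 9.97. For both genes the CXCR3+ innate and naive values lay within 0.04 of each other. CXCR3- innate minus naive was -0.40 for Slc7a5 and -0.30 for Slc3a2, and CXCR3+ innate minus CXCR3- innate was 0.37 and 0.30. With quantile normalization Slc3a2 moved to -0.11 in CXCR3- innate minus naive and to 0.18 between the innate populations. No order of these genes between CXCR3+ innate and naive cells can be read, since Slc7a5 took either sign over the scalings, between -0.04 and 0.04. Counting the gene itself, 450 of the 3525 genes had a CXCR3- innate minus naive difference as low as that of Slc7a5 or lower, and 746 as low as that of Slc3a2.

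The other amino acid and peptide carriers were nearly flat. Slc1a5, a carrier of glutamine and other neutral amino acids, read 8.56 on the CXCR3+ innate array, 8.57 on the CXCR3- innate array and 8.58 on the naive array, and of its 2 probe sets one read 8.64, 8.64 and 8.65 and the other 8.48, 8.50 and 8.50. Slc15a2, which takes up short peptides, read 8.23, 8.24 and 8.30. Slc38a9, the lysosomal carrier that senses arginine for the growth kinase mTOR, read 7.99, 8.03 and 8.05. Slc6a5 was the amino acid carrier that read highest in CXCR3- innate cells, at 8.03 against 7.96 on both other arrays. It reached 8 on that array alone, so this order was fixed by the choice of members. No amino acid or peptide carrier reached 1.5-fold in any comparison.

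Carriers of sugars and monocarboxylates numbered 5. The glucose carrier Slc2a1 had a bright and narrow signal, at 9.26 on the CXCR3+ innate array, 9.20 on the CXCR3- innate array and 9.26 on the naive array. Slc16a1, given above, was 1.72-fold lower in CXCR3- innate than in naive cells, a log2 difference of -0.78. In CXCR3+ innate cells it was 1.48-fold lower than in naive cells, at -0.56, just short of the 1.5-fold rule. Its CXCR3- innate minus naive difference stayed between -0.78 and -0.65 over the scalings. Of the 3525 genes, 69 were as low or lower in CXCR3- innate minus naive and 76 in CXCR3+ innate minus naive.

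The remaining members of that class had the same order of populations at smaller size or no difference. Slc16a5, another member of the monocarboxylate family, read 8.28 on the CXCR3+ innate array, 8.16 on the CXCR3- innate array and 8.58 on the naive array. Slc50a1, a sugar exporter of internal membranes, read 8.83, 8.59 and 9.01. Slc37a1 was equal on all arrays at 8.21. Against naive cells the median difference of the 5 genes was -0.19 in CXCR3+ innate cells, where the 3525 genes had -0.031. In CXCR3- innate cells it was -0.42, where the 3525 genes had -0.088, and between the innate populations it was 0.12, beside 0.00. With quantile normalization the class medians were -0.10 for CXCR3+ innate and -0.29 for CXCR3- innate cells against naive cells. The medians of the 3525 genes moved as well, to 0.030 and 0.023 in that order. Both of these comparisons use the same naive array. Another glucose carrier of T cells, Slc2a3, stayed outside the members and read 7.46 on all arrays.

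Mitochondrial carriers of family 25 numbered 7. Slc25a5, given above, was 1.62-fold lower in CXCR3- innate than in naive cells, at -0.70. Its CXCR3+ innate minus naive difference was -0.25, and CXCR3+ innate minus CXCR3- innate was 0.45, the largest positive difference of any member between the innate populations. Under quantile normalization the CXCR3- innate minus naive difference was -0.53, which misses the 1.5-fold rule. The related Slc25a4, a further ADP and ATP exchanger, fell outside the members, and read 7.56 on the CXCR3+ innate array, 7.38 on the CXCR3- innate array and 7.82 on the naive array. It was named after its values were seen.

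Other mitochondrial carriers had smaller ranges. Slc25a3, which brings in phosphate for ATP synthesis, read 9.41 on the CXCR3+ innate array, 9.30 on the CXCR3- innate array and 9.55 on the naive array. Slc25a28, an iron importer of mitochondria, read 7.75, 7.49 and 8.01, at levels that many receptor genes also reached. Slc25a36, a carrier of pyrimidine nucleotides, read 8.17, 8.16 and 8.43, so the innate populations were nearly the same and both were lower than naive cells. Slc25a11, which exchanges oxoglutarate and malate, was the mitochondrial member with its highest value in CXCR3+ innate cells, at 9.13, against 8.91 in CXCR3- innate and 9.07 in naive cells. Slc25a12, the aspartate and glutamate carrier, read 8.47, 8.41 and 8.60.

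As a class, 6 of the 7 mitochondrial carriers were lower in CXCR3- innate than in naive cells and 1 was equal, the median difference being -0.26. Relative to naive cells 5 were lower in CXCR3+ innate cells and the median was -0.14. Slc25a28 is in both counts and medians. It reached 8 on the naive array alone, so it was bound to be lower in innate cells. Between the innate populations 6 were above 0 and none below, with a median of 0.11. Over the 3525 genes at 8 or more, 62.4%, 56.5% and 44.5% lay on those sides of 0. With quantile normalization the class median was -0.10 for CXCR3- innate and -0.062 for CXCR3+ innate cells against naive cells. Between the innate populations it was 0.044, with 5 carriers above 0 and 2 below, beside 64.3% of the 3525 genes below. The medians of the 3525 genes in that order were -0.088, -0.031 and 0.00 as deposited. They were 0.023, 0.030 and -0.029 with quantile normalization. These class counts are descriptions of 7 genes on 3 arrays.

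Carriers of ions numbered 4. Slc12a7 was 1.70-fold lower in CXCR3+ innate than in naive cells, at -0.77, and 1.54-fold lower in CXCR3- innate than in naive cells, at -0.62. It was the member with the lowest CXCR3+ innate minus naive difference, and 28 of the 3525 genes, itself included, were as low or lower. That difference stayed between -0.77 and -0.68 over the scalings. The CXCR3- innate minus naive difference was -0.50 with quantile normalization and -0.58 with cyclic loess, both short of 1.5-fold. Slc12a7 also had the lowest difference of any member between the innate populations, at -0.14.

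The phosphate importer Slc20a1 read 9.22 on the CXCR3+ innate array, 9.01 on the CXCR3- innate array and 9.23 on the naive array, the pattern also seen in Slc7a5 and Slc3a2. Its CXCR3- innate minus naive difference was -0.22 as deposited and -0.072 with quantile normalization. As deposited, 1094 of the 3525 genes, itself included, were as low or lower. The sodium and proton exchanger Slc9a8 read 8.11, 8.11 and 8.20. Slc9a3r1, whose symbol has the same form, encodes a scaffold that binds membrane proteins and is no carrier. It read 9.14 on both innate arrays and 9.19 in naive cells, and the counts with and without it are given in the closing section.

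Metal carriers, 5 in number, were the flattest class. The widest range among them was 0.08, in the zinc carrier Slc39a5, at 8.04 on the CXCR3+ innate array, 8.12 on the CXCR3- innate array and 8.07 on the naive array. The magnesium carrier Slc41a1 read 8.12, 8.15 and 8.15, and the other 3 were equal on all arrays. Their mean levels lay between 8.08 and 8.38, a span that 18.9% to 29.3% of receptor genes matched or exceeded.

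Carriers of nucleosides and nucleotide sugars numbered 4, and their widest range was 0.13. Slc28a2, which concentrates purine nucleosides in the cell, read 8.71 on the CXCR3+ innate array, 8.74 on the CXCR3- innate array and 8.84 on the naive array. Its neighbour on chromosome 2, the related gene Slc28a2b, read 8.72, 8.73 and 8.72, and whether probes of these related genes detect each other was not tested. Slc29a3, a nucleoside carrier of lysosomes, read 8.48, 8.47 and 8.47. For Slc35a4 the 2 probe sets disagreed: one read 9.39, 9.25 and 9.36, and the other read 7.02, 7.07 and 7.08. Its gene value of 8.20, 8.16 and 8.22 is their mean and matches neither.

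The last class, of 8 genes, held the 3 members whose naive value was below both innate values. Slc22a12, known as a urate exchanger of the kidney, read 8.14 on the CXCR3+ innate array, 8.07 on the CXCR3- innate array and 7.94 on the naive array. Slc22a13, of the same organic anion family, read 8.55, 8.55 and 8.38. The riboflavin carrier Slc52a3 read 8.11, 8.08 and 7.999. These 3 differences from naive cells were at most 0.21. Slc22a12 and Slc52a3 reached 8 on the innate arrays only, so an innate value above the naive one was fixed by the choice of members. Slc22a13 was above 8 on all arrays. Receptor genes at or above these members made up 30.4% for Slc22a12, 15.9% for Slc22a13 and 30.2% for Slc52a3.

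In the opposite direction, Slc49a4, a lysosomal membrane carrier, read 7.89 in both innate populations and 8.27 in naive cells. Slc44a2, a choline-transporter-like protein, was the brightest of the class, at 9.47 on the CXCR3+ innate array, 9.42 on the CXCR3- innate array and 9.62 on the naive array. The vesicular nucleotide carrier Slc17a9 read 8.39, 8.36 and 8.39. Slc14a1 and Slc23a2 were equal on all arrays, at 8.65 and 8.24.

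The members were then set beside all genes at the same level. Of the 44 members 0 were higher and 1 was lower by 1.5-fold or more in CXCR3+ innate minus naive, against the 1.05% and 1.84% of the 3525 genes given above. For CXCR3- innate cells 0 were higher and 3 were lower than in naive cells, against 0.17% and 4.48%. Between the innate populations none was called, against 2.7% and 0.255%. The lower members make up 2.27% and 6.82% of the 44 in the comparisons with naive cells, close to the shares over all genes, so the counts single out no feature of the carriers. At 2-fold, where no member was called, 0.34% of genes were higher and 0.284% lower in CXCR3+ innate than in naive cells. The 2-fold shares were 0.0567% and 0.652% for CXCR3- innate against naive cells, and 0.397% and 0.0284% between the innate populations.

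Directions followed the whole array as well. Against naive cells, 5 members lay above 0, 15 were equal and 24 lay below in CXCR3+ innate cells, where 18.6%, 24.9% and 56.5% of the 3525 genes did so. For CXCR3- innate cells 6 lay above, 12 were equal and 26 lay below, beside 16.8%, 20.8% and 62.4% of genes. Between the innate populations, as CXCR3+ innate minus CXCR3- innate, 21 lay above, 14 were equal and 9 lay below, beside 44.5% of genes above and 25.4% below. The member medians were -0.016, -0.054 and 0.00 in these comparisons, where the 3525 genes had -0.031, -0.088 and 0.00. These directions depended on the scaling. The scalings started from values that RMA had already processed and that were limited to probe sets reaching 7 on an array. The part of that limit in the changes was not tested. With quantile normalization 17 members lay below 0 and 27 above for CXCR3+ innate against naive cells, beside 44.5% of the 3525 genes below. For CXCR3- innate against naive cells 18 lay below and 26 above, beside 46.2% of genes below. Between the innate populations it gave 16 above 0 and 28 below, and 64.3% of the 3525 genes below. The members equal as deposited, 15, 12 and 14 in these comparisons, took part in this change. After that scaling they all lay above 0 against naive cells and below 0 between the innate populations. All comparisons with naive cells share the single naive array.

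**Figure D3:**
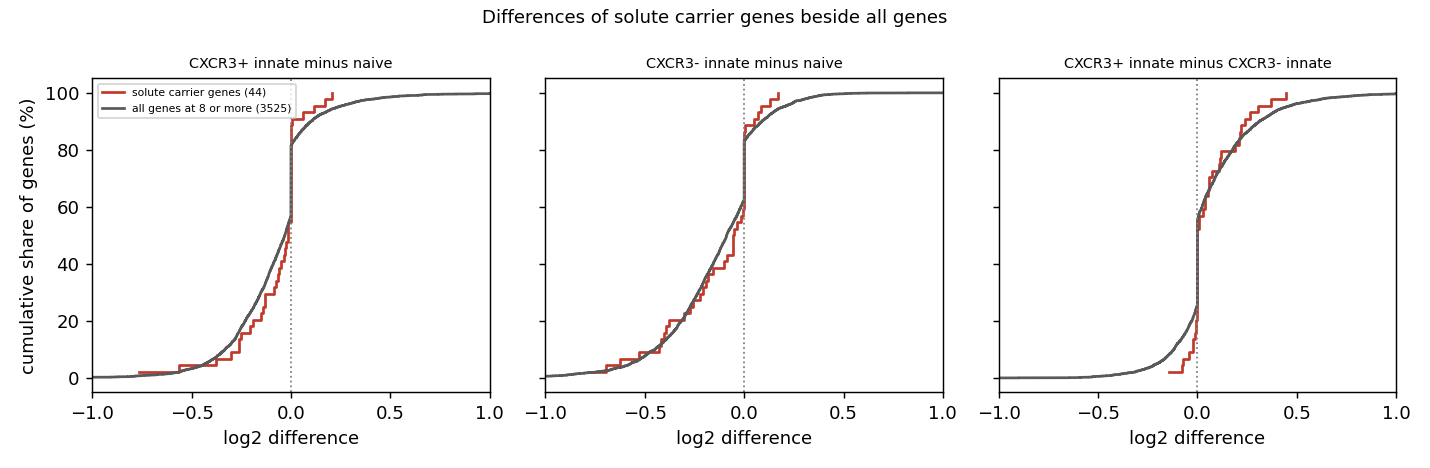
Cumulative share of genes (percent, vertical axis) against the log2 difference (horizontal axis, cut at -1 and 1) in each of the 3 comparisons, for the 44 solute carrier genes and all 3525 genes with a highest value of 8 or more. The curves run close together, with a step at 0 from equal values, and the carriers end between -0.78 and 0.45.

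The naive array held the strictly highest value of 22 of the 34 members with unequal values, which is 64.7%, and the strictly lowest value of 3. The CXCR3- innate array held the strictly lowest value of 18, which is 52.9%. Among the 2974 genes at 8 or more with unequal values the same shares were 60.0% and 44.7%. These orders turned with the scaling, in all genes as in the members. With quantile normalization the naive array was strictly highest for 14 of the 44 members and strictly lowest for 23. The CXCR3- innate array was strictly lowest for 13 and highest for 23. For the naive array the shares of the 3525 genes were 35.1% highest and 44.4% lowest. They were 27.1% lowest and 45.2% highest for the CXCR3- innate array. The 10 members equal as deposited are counted here, and all became lowest in naive and highest in CXCR3- innate cells. In the values as deposited, the 3 members lowest in naive cells were Slc22a12, Slc22a13 and Slc52a3, given above. For Slc22a12 and Slc52a3 the choice of members favoured that order, as stated there.

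Members of high level were split off by the mean over the 3 arrays, a choice made after seeing the data. A split by the highest value would favour genes that are high on 1 array: Slc16a1 and Slc50a1 reach 9 on the naive array alone. For the same reason Slc25a28 and Slc49a4, which reach 8 in naive cells only, were bound to be lower in innate cells. The 9 members with a mean of 9 or more were Slc38a2, Slc3a2, Slc25a5, Slc44a2, Slc25a3, Slc2a1, Slc20a1, Slc9a3r1 and Slc25a11. Relative to naive cells all 9 were lower on the CXCR3- innate array, with a median difference of -0.22, and of 834 genes with such a mean 74.3% lay below 0 and 17.4% above, with a median of -0.20. For CXCR3+ innate cells 6 of the 9 lay below 0 and 1 above, beside 66.1% and 21.9% of those genes. Between the innate populations 8 lay above 0 and none below, beside 58.0% and 26.7%.

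Quantile normalization changed these counts too. It left 7 of the 9 below 0 and 2 above for CXCR3- innate against naive cells, beside 54.9% of the 834 genes below. The median was -0.072, beside -0.035 for the 834 genes. For CXCR3+ innate against naive cells 4 lay below and 5 above, beside 54.1% of those genes below. Between the innate populations 6 lay above and 3 below, and 56.1% of the 834 genes lay below. In the values as deposited the 35 members with a mean under 9 had medians of -0.016 and 0.00 in the comparisons of CXCR3+ and of CXCR3- innate with naive cells.

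**Figure D4:**
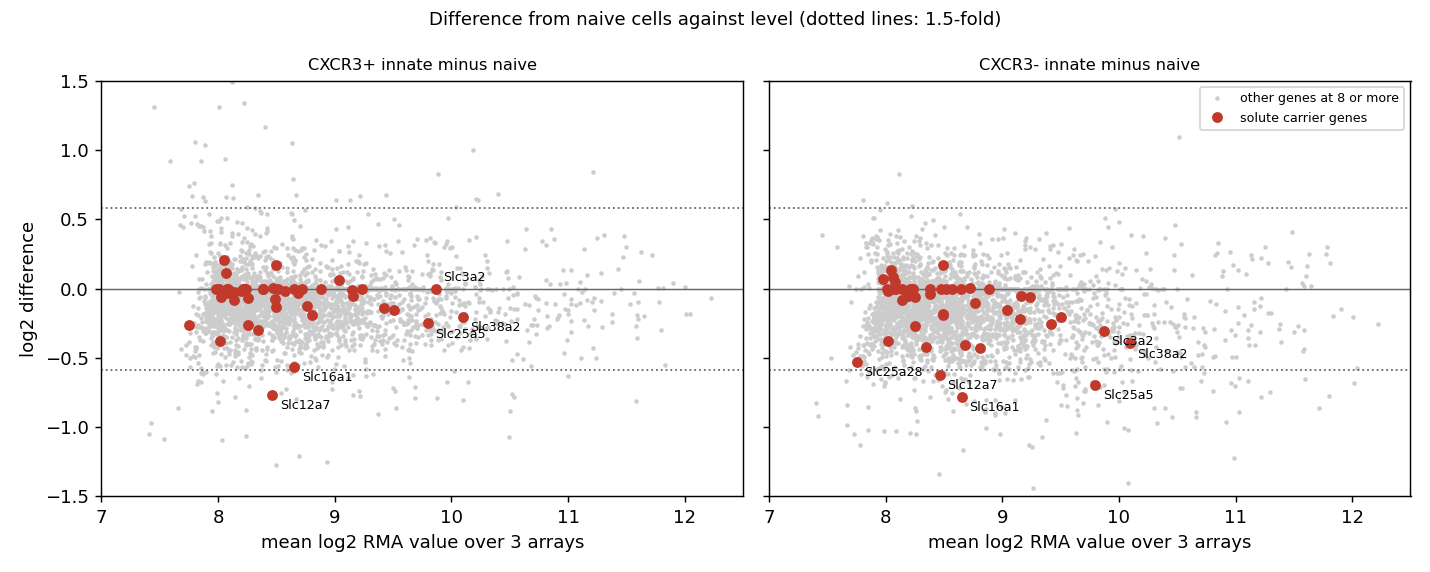
Log2 difference from naive cells (vertical axis) against the mean log2 RMA value over 3 arrays (horizontal axis) for CXCR3+ innate cells (left) and CXCR3- innate cells (right); red points are the 44 solute carrier genes, grey points the other genes with a highest value of 8 or more, and 13 genes lie outside the axes. Slc12a7 passes the dotted 1.5-fold line on the left, and Slc12a7, Slc16a1 and Slc25a5 pass it on the right.

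Genes that work with carriers were taken from lists of partners, pumps and sensors. Of 16 partner and regulator genes 12 were measured. At 1.5-fold 1 was lower in CXCR3+ innate than in naive cells, 3 were lower in CXCR3- innate than in naive cells, and none was higher in either or differed between the innate populations. The lists below hold genes of any level, and over all 10191 genes the 1.5-fold shares were 0.579% higher and 0.824% lower in CXCR3+ innate against naive cells. They were 0.0981% and 1.76% in CXCR3- innate against naive cells, and 1.05% and 0.128% for CXCR3+ innate against CXCR3- innate cells. Atp1b3, a subunit of the sodium pump that drives sodium-coupled uptake, read 10.06 on the CXCR3+ innate array, 9.66 on the CXCR3- innate array and 10.41 on the naive array. Txnip, which promotes removal of glucose carriers from the cell surface, read 9.65, 9.31 and 9.98, and Mpc1, a subunit of the mitochondrial pyruvate carrier, read 7.07, 6.80 and 7.41. Bsg and Emb, chaperones that bring monocarboxylate carriers to the surface, had narrower ranges than Slc16a1 and were picked after their values were seen. Bsg read 8.24, 8.05 and 8.13, and Emb read 8.80, 8.80 and 8.88. Nedd4l, a ubiquitin ligase of ion transporters, read 7.60, 7.81 and 8.21, and was the member of this list past 1.5-fold in CXCR3+ innate minus naive. Receptor genes at or above the called genes made up 89.6% for Mpc1, 38.9% for Nedd4l, 2.59% for Txnip and 1.30% for Atp1b3. Txnip and Atp1b3 had a highest value above 9. Of the 996 genes with a highest value of 9 or more, 10.7% were lower by 1.5-fold in CXCR3- innate against naive cells. This list was not recomputed under the other scalings.

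Other transporter groups and the nutrient sensors had few differences. Of 16 genes of the Slc35 branches b to g 13 were measured, none reached 1.5-fold in any comparison, and 7 were equal between CXCR3+ innate and naive cells. None of the 17 measured pump genes of 20 reached 1.5-fold. The widest range among them was that of Atp8b4, at 8.23 on the CXCR3+ innate array, 7.97 on the CXCR3- innate array and 8.47 on the naive array. Of 23 ABC transporter genes, which use ATP directly, 14 were measured. Abcb1b, a multidrug exporter, read 7.99, 7.64 and 7.38, and its CXCR3+ innate value exceeded the naive one by 0.62, past 1.5-fold, and Abca3 was lower at -0.71 with values of 6.50, 7.15 and 7.21. Abca3 was also past 1.5-fold between the innate populations, at -0.65. Receptor genes at or above these called genes made up 97.6% for Abca3 and 53.5% for Abcb1b, so their values do not by themselves show expression. Tap1, the peptide carrier of antigen presentation, read 9.03, 9.18 and 9.56. None of 21 measured nutrient sensing genes of 32 reached 1.5-fold, and 10 of them were lower in CXCR3+ innate and 12 in CXCR3- innate than in naive cells, beside 34.2% and 36.3% of all 10191 genes. Sesn1, a stress-induced inhibitor of mTOR signalling picked after its values were seen, had the widest range of these, at 7.51 in both innate populations and 7.99 in naive cells.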

How the data were processed

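RNA of 3 sorted CD8+ T cell populations was measured on 1 array each. The authors deposited log2 values. The submitters' processing notes name RMA and Expression Console. Version, genome build and annotation are not given in the sources used here. As a method, RMA corrects background, equalises the array distributions and summarises probe sets by median polish.

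The table held 12417 probe sets, each with a highest value of at least 7.00, and array medians were 7.70, 7.68 and 7.71 in CXCR3+ innate, CXCR3- innate and naive cells. The platform annotation gave 1 symbol to 10576 probe sets, several to 1108 and none to 733; only the first kind was named, and values of a gene's probe sets were averaged. All 44 members matched a symbol of the RefSeq table of GRCm38.p6, which was used for neighbours and promoters. RefSeq promoters of 33 members were searched.

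Differences of log2 values were called at 1.5-fold. With 1 array per population no test, error or p-value could be computed, and the number of arrays limits the precision. Named members were all those called at 1.5-fold, the 10 with the highest mean level, in each cargo class the 4 with the widest range and the 2 with the highest mean, the 5 genes on either side of the level of 8, and a list of known T cell carriers; up to 4 genes with the widest range were named from each list of partners, Slc35 branches, pumps and ABC transporters, and any member could be named beside its class. Members and lists were chosen with earlier results of these data known, and the class of family 49 was set after its values were seen. The alternatives were a 2-fold threshold, quantile normalization, cyclic loess, median centring, a linear offset of 16, the brightest probe set per gene, every probe set by itself, levels of 7.5 and 9, and leaving out Slc9a3r1; a split by mean level and class medians under each scaling were added after seeing the data. Quantile normalization and cyclic loess were applied to the deposited probe sets, already processed by RMA and limited to those reaching 7. They also separate values that were equal as deposited, so a change of direction under them does not show which scaling is right. Tools were R 4.3.3 with limma 3.58.1 for the scalings, and Python 3.11.15 with pandas 2.3.3 and numpy 2.4.6. The reliability of the calls at 1.5-fold was not tested, since each population has 1 array.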

Additional observations from a re-analysis of the deposited data

How the results depend on the processing

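Of 87 recomputed counts and medians of the members 79 changed little, meaning a count within 1.5 times or a median within 0.1. The deposited medians of -0.016, -0.054 and 0.00 are smaller than that margin, so a median could change sign and still count as changed little. Counts of 0 that stayed at 0 are also included, so this tally is no measure of stability. At 2-fold, the count of lower members was 0 in CXCR3+ innate minus naive and 0 in CXCR3- innate minus naive. With a level of 9, which 2 of 11 members reach on the naive array alone, CXCR3+ innate minus naive had 0 lower members and a median of -0.14, CXCR3- innate minus naive had a median of -0.26, and CXCR3+ innate minus CXCR3- innate had one of 0.21. Quantile normalization left 1 lower member in CXCR3- innate minus naive, Slc16a1, and a median of 0.05. Without Slc9a3r1 every count of members called was the same. The member medians near 0 took the other sign under several scalings: in CXCR3+ innate minus naive they were 0.037 with quantile normalization, 0.0079 with cyclic loess and 0.0014 with median centring. Of the called members, Slc12a7 missed the 1.5-fold rule in CXCR3- innate minus naive with quantile normalization (-0.50) and cyclic loess (-0.58), and so did Slc25a5 with quantile normalization (-0.53). Slc16a1 in CXCR3+ innate minus naive was short of it under every alternative as well as in the deposited values, between -0.56 and -0.46. None of these differences changed sign. No paired analysis was possible because each population has 1 array, and for the same reason no array could be left out in turn. A table limited to probe sets that reach 7 on an array says nothing of carriers below that level.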

Other observations

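Among the 124 genes of the same symbol form that stayed below a level of 8, none differed by 1.5-fold in any comparison. The widest range was that of Slc9a7, a sodium and proton exchanger of internal membranes, at 7.41 on the CXCR3+ innate array, 7.05 on the CXCR3- innate array and 6.86 on the naive array, so the naive value was the lowest. This gene was picked after its values were seen, and its levels lie below the receptor gene median of 7.71.

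A further 7 probe sets carry a solute carrier symbol together with another gene, and 2 of them reached 8. One is shared by Slc16a3, a lactate exporter, and Csnk1d, at 8.70 on the CXCR3+ innate array, 8.52 on the CXCR3- innate array and 8.76 on the naive array. The probe set named for Slc16a3 alone read 7.45 on all arrays.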
